A study of Homo sapiens with 6 samples.

Results

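SWI/SNF complexes are chromatin remodelers that use ATP to slide or evict nucleosomes, and they are built from a shared core with subunits that set the form of the complex. The genes described here are 10 subunit genes of the BAF and PBAF forms, out of 19792 genes in the table. They were chosen by name for their place in the complex and not for any measured value, though with earlier results of these data known. All 10 were found by symbol. They were measured in BT-549, an established human triple-negative breast cancer cell line, engineered so that doxycycline (DOX) induces an shRNA against WDR5. The RNA-seq covered 3 vehicle cultures (0.1% DMSO) and 3 cultures given 500 ng/ml DOX, both for 7 days by the paper's text. Cells of both groups carried the shRNA, so the vehicle cells are the same line with the shRNA not induced. An effect of DOX by itself cannot be told apart from that of the shRNA.

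Each SWI/SNF complex holds 1 catalytic ATPase, which is SMARCA4 (BRG1) or SMARCA2 (BRM). SMARCC1 and SMARCB1 belong to the core around which the complexes assemble. Canonical BAF is marked by ARID1A or ARID1B, PBAF by ARID2, PBRM1 and BRD7, and the non-canonical form by BRD9. Several of these genes are tumor suppressors, and the family is known for opposing Polycomb repression, as the COMPASS complexes that contain WDR5 also do.

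The level used here is the mean normalized count, that is the reads of a gene after scaling for library depth, which the authors averaged over all 6 libraries. This single value pools vehicle and DOX. It has no error of its own, and no values of individual libraries were used, so depth per library is unknown and no difference between DOX and vehicle was tested for any gene. Some bounds follow from the mean alone, since each group supplies 3 of the 6 libraries. A group mean cannot be more than 2 times the pooled mean, and no library can be more than 6 times it. At least 1 of the groups must also be at or above the pooled mean. WDR5, the gene targeted by the shRNA, had a mean normalized count of 1143, which does not show its silencing. As a check of the cell type, the mesenchymal markers VIM and CDH2 had mean normalized counts of 47782 and 4093. The epithelial markers CDH1 and EPCAM were at 59.6 and 1.30. The hormone receptor genes ESR1 and PGR were at 0.790 and 0.801. Unlike them, the receptor gene ERBB2 was not low, with 1221, the 75.7 percentile of mean normalized counts over all genes.

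The catalytic pair had the widest gap of the 3 paralogue pairs compared (SMARCA4 and SMARCA2, ARID1A and ARID1B, BRD9 and BRD7), so the DNA around the start sites of both genes is printed, from 250 bases before the start to 50 after it (RefSeq, GRCh38.p14), with each CG dinucleotide in capitals. The SMARCA4 window is chr19:10960780-10961079 and the SMARCA2 window is chr9:2015097-2015396, both on the plus strand.
SMARCA4: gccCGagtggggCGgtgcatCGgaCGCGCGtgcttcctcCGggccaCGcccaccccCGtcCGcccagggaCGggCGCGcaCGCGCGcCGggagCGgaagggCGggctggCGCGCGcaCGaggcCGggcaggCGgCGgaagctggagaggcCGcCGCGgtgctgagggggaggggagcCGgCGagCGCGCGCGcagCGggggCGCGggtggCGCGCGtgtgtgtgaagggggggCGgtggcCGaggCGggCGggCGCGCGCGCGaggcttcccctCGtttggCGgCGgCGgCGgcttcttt
SMARCA2: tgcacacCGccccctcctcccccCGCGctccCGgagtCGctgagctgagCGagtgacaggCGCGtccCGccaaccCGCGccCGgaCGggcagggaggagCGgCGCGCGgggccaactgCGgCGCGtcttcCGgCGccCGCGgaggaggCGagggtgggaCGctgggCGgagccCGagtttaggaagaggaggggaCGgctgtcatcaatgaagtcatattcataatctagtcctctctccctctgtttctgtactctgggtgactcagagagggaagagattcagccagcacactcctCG
The SMARCA4 window held 55 CG dinucleotides, more than 99.6% of 34796 such windows of human genes. The SMARCA2 window held 30, more than 77.6% of them. The median over all windows was 14. RefSeq windows of this kind were matched for 8 of the 10 genes, with 1 window per gene, at the start of its MANE Select transcript. Their CG counts ran from 25 at SMARCB1 to 55 at SMARCA4. Between these were SMARCA2 at 30, PBRM1 at 31, ARID1A at 33, BRD7 at 37, ARID1B at 39 and BRD9 at 43. A link between CG count and level was not tested. SMARCC1 and ARID2 were not matched. RefSeq lists 4 windows for SMARCA2 and 2 each for SMARCA4, ARID1B, PBRM1 and BRD9, and the further ones were not read. The GENCODE gene of SMARCA2 also begins upstream of the printed window. The AP-1 motif TGANTCA, searched on both strands, was in the windows of SMARCA2 and SMARCB1 (2 of 8), and in 7.73% of all windows. An E2F motif (TTTCCCGC or TTTGGCGC, both strands) was in the BRD7 window alone (1 of 8), and in 2.27% of all windows. These are matches of letters, and binding at them was not measured in this RNA-seq.

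SMARCA4, on chromosome 19 of GRCh38 from 10960932 to 11079426 (GENCODE 44, 35 exons in its MANE Select transcript), had a mean normalized count of 4669 and ranked 1215 of 19792 genes. SMARCA2, on chromosome 9 from 1980290 to 2193624 (34 exons), had a mean normalized count of 61.3 and ranked 11415. SMARCA2 was thus the only one of the 10 genes with a mean normalized count below 1000. By the bounds above, the mean of neither group can exceed 123 for SMARCA2, and no library can exceed 368. At least 1 group must have had a SMARCA4 mean of 4669 or more, so that in that group SMARCA4 was above SMARCA2 whatever the split between DOX and vehicle.

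To compare genes of different length, the mean normalized count was divided by the length of the MANE Select transcript in kb, referred to as the level per kb. The SMARCA4 transcript has 5577 bases and the SMARCA2 transcript 5748, so length differs little within this pair. The level per kb was 837 for SMARCA4 and 10.7 for SMARCA2, a ratio of 78.5. SMARCA4 supplied 98.7% of the summed level per kb of both ATPase genes. Among the 13017 genes with a transcript length and a mean normalized count of at least 10, SMARCA4 stood at the 82.3 percentile of the level per kb and SMARCA2 at the 8.10 percentile. Neither ATPase transcript shared a 50-base word with the other. Of the 50-base words of the SMARCA2 transcript, 0.158% occur in a transcript of another gene, which is MAML2, and of those of SMARCA4 0.959% do so, in the overlapping gene ENSG00000278643.

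**Figure D1:**
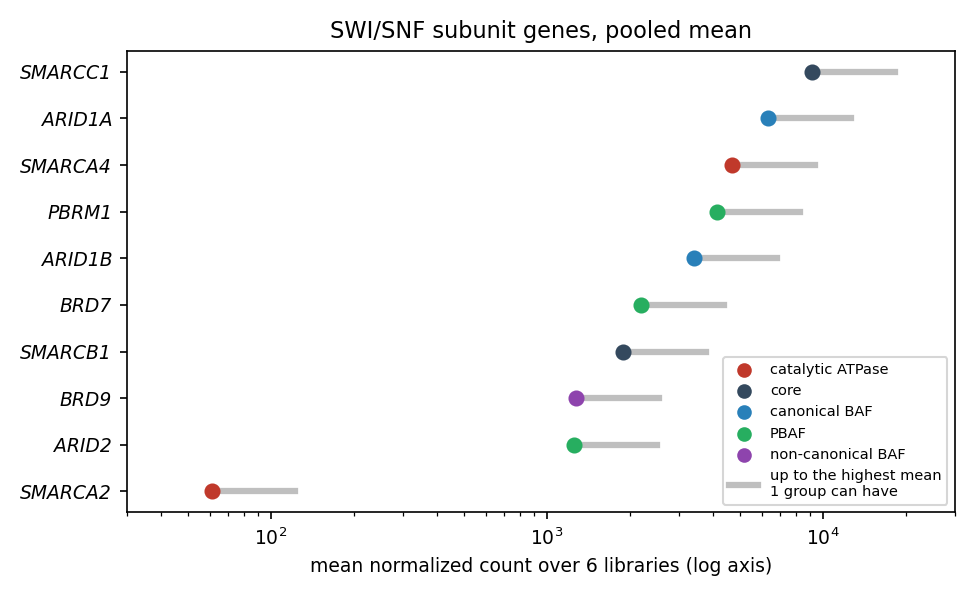
Mean normalized count over 6 libraries (horizontal log axis) for each of the 10 genes (vertical axis), as points coloured by role. The grey line runs from the pooled mean to 2 times that value, the highest mean that the vehicle or the DOX group can have; SMARCA2 at 61.3 lies apart from the other genes, which run from 1254 to 9126.

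Of the core genes, SMARCC1 was the highest of the 10 and SMARCB1 stood among the middle genes. SMARCC1, a scaffold subunit that holds the core together, lies on chromosome 3 from 47585269 to 47782106 (28 exons). It had a mean normalized count of 9126, rank 480 of all genes, and a level per kb of 1436, the highest of the 10. Its paralogue SMARCC2, which can take the same place in the complex, had a level per kb of 657, so SMARCC1 supplied 68.6% of the sum of the pair. The SMARCC1 level per kb was 1.72 times that of SMARCA4 and 135 times that of SMARCA2. With the union of exons these ratios were 3.18 and 404, and with the coding length 2.91 and 214.

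SMARCB1, a core subunit that contacts the nucleosome and is lost in rhabdoid tumors, lies on chromosome 22 from 23786931 to 23838009 (9 exons). It had a mean normalized count of 1883 and a level per kb of 363. That level depends on the annotation. The MANE Select transcript has 5191 bases, of which 1155 are coding, and 56.3% of its exonic bases lie across from exons of DERL3 on the other strand. Per kb of coding length, SMARCB1 reached 1630 and moved from place 7 to place 2 of the 10.

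ARID1A and ARID1B encode large subunits of canonical BAF, of which a complex takes 1. ARID1A, on chromosome 1 from 26693236 to 26782104 (20 exons), had a mean normalized count of 6312, rank 805, and a level per kb of 734. ARID1B, on chromosome 6 from 156776020 to 157210779 (20 exons), had a mean normalized count of 3403, rank 1816, and a level per kb of 330. The ratio of ARID1A to ARID1B per kb was 2.22. ARID2, the corresponding subunit of PBAF, had a level per kb of 146, lower than ARID1A under all 5 lengths tried. It was also lower than ARID1B except with the union of exons, where ARID2 was at 140 and ARID1B at 128. Of the summed level per kb of the 3 ARID genes, ARID1A supplied 60.7%, ARID1B 27.3% and ARID2 12.1%, and with the union of exons the shares of ARID1B and ARID2 were 14.1% and 15.5%. ARID1A had no 50-base word in a transcript of another gene, and ARID1B had 0.0682% of its words in DLX6.

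The subunits particular to PBAF differed among themselves. PBRM1, which carries a row of bromodomains that bind acetylated histones, lies on chromosome 3 from 52545352 to 52685917 (32 exons). Its mean normalized count was 4131, rank 1420, and its level per kb 517. BRD7, a further bromodomain subunit on chromosome 16 from 50313487 to 50368988 (17 exons), had a mean normalized count of 2188 and a level per kb of 403. ARID2, on chromosome 12 from 45729706 to 45908040 (21 exons), had a mean normalized count of 1254. On the per kb scale PBRM1 was 3.54 times and BRD7 2.76 times the level of ARID2. The ratio for BRD7 was 1.96 with the union of exons and 4.92 per kb of coding length. ARID2 and SMARCA2 were the 2 members below the median level per kb of 208 over the 13017 genes. With the union of exons or the coding length, ARID1B was also below the median for that length, at the 42.7 and 47.5 percentiles. The BRD7 value carries uncertainty of its own. Of its 50-base words, 16.5% occur in transcripts of other genes, mostly the pseudogene BRD7P2, and 40.4% of its exonic bases lie across from exons on the other strand, including those of ADCY7. The setting for strand in the counting is not given in the sources used here.

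BRD9, the bromodomain subunit of the non-canonical form, which lacks SMARCB1 and the ARID subunits, lies on chromosome 5 from 850291 to 892801 (16 exons). It had a mean normalized count of 1275 on a transcript of 2665 bases, the shortest of the 10. Its level per kb was 478, against 403 for BRD7. The ratio of BRD9 to BRD7 was 1.19, and it fell to 0.636 per kb of coding length, so the order of BRD9 and BRD7 depends on the length used.

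By the level per kb of the MANE Select transcript, SMARCC1 was followed by SMARCA4, ARID1A and PBRM1, then by BRD9, BRD7 and SMARCB1 at 478, 403 and 363, and last by ARID1B, ARID2 and SMARCA2. With no spread between libraries, it cannot be said which neighbours differ. Neighbours from PBRM1 down to ARID1B were within 1.19 times of each other, whereas ARID2 was 13.7 times the level of SMARCA2 (39.5 times with the union of exons). Over 5 ways of setting the length, SMARCC1 stayed in the first and SMARCA2 in the last place, and the other 8 genes changed place.

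**Figure D2:**
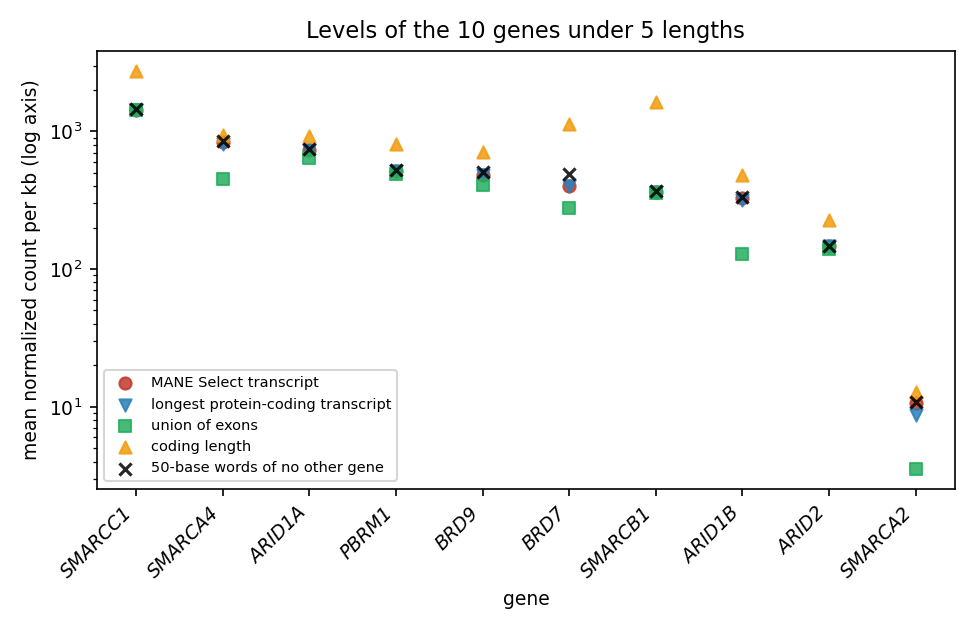
Mean normalized count per kb (vertical log axis) of the 10 genes under 5 choices of length, one marker for each. SMARCC1 is highest and SMARCA2 lowest with every marker, with SMARCA2 between 3.55 and 12.8, while SMARCB1 spans 357 to 1630 and BRD7 275 to 1120.

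The other SWI/SNF subunit genes give the setting of these levels. Of 19 listed, 18 are in the table and ACTL6B, the neuronal actin-like subunit, had no row. Of these 18, 10 lay above the median level per kb of 208, as did 8 of the 10 members. The reads behind these values were many for most members, since a mean normalized count of 1000 or more was found for 9 of the 10 members, for 7 of the 18 others and for 27.9% of all genes. In the SMARCD, DPF and SS18 families, SMARCD1, DPF2 and SS18 supplied 57.4%, 76.2% and 83.4% of the summed level per kb. SMARCD1 had a level per kb of 571, against 256 for SMARCD2 and 167 for SMARCD3. DPF2, a histone reader of BAF, was at 377, with DPF1 and DPF3, known from neurons and muscle, at 79.6 and 37.9. The order of DPF1 and DPF3 depends on the length. Per kb of coding length DPF3 supplied 22.0% of the sum of the DPF genes, DPF1 9.11% and DPF2 68.9%. SS18 was at 805 and SS18L1 at 160. ACTL6A, the actin-like subunit of dividing cells, was at 1255, and PHF10, a PBAF subunit, was at 556. BICRA and BICRAL, which belong with BRD9 to the non-canonical form, were at 53.0 and 81.2.

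SMARCE1, a core subunit, had a mean normalized count of 127 and a level per kb of 24.7, and SMARCB1 was 14.7 times higher. It was the lowest of the 18 with the MANE Select transcript, the longest transcript and the union of exons. BICRA was lower per kb of coding length, and DPF3 was lower with the number of words held by no other gene as the length. Of the 50-base words of SMARCE1, 52.1% occur in transcripts of other genes, and 51.5% of its exonic bases overlap a readthrough gene (ENSG00000264058) on the same strand. With its full count divided by the number of words held by no other gene, the level per kb of SMARCE1 was 52.1. The ratio of SMARCB1 to SMARCE1 was then 7.03, whereas with the union of exons it was 35.3. Reads over those words alone were not counted, so the share of the SMARCE1 count that comes from shared words is unknown. How the counting treated reads that also match another gene is not given in the sources used here. It is thus also unknown whether such reads of SMARCE1 were left out, which would make its count too low. SMARCA2 has no such overlap, with 0.0% of its exonic bases inside exons of another gene on either strand.

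**Figure D3:**
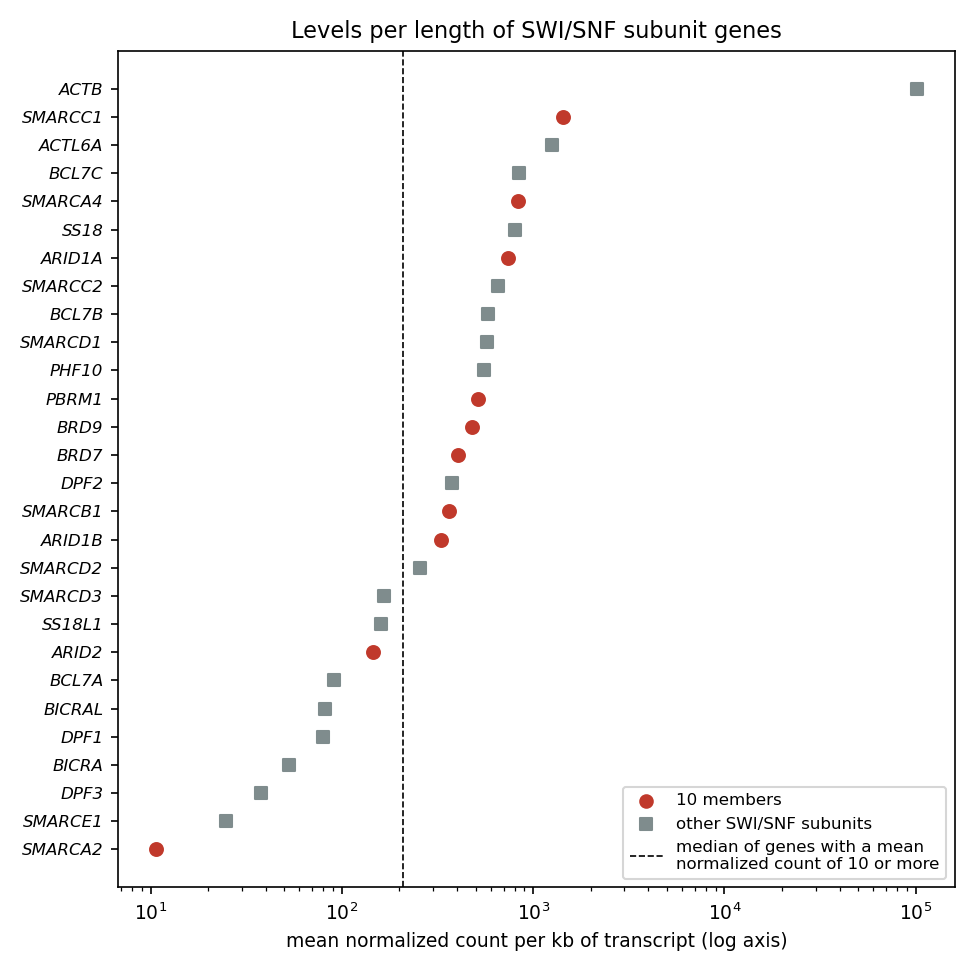
Mean normalized count per kb of transcript (horizontal log axis) for the 10 members (circles) and 18 other SWI/SNF subunit genes (squares), in order. The dashed line is the median of 208 over genes with a mean normalized count of 10 or more; SMARCA2 at 10.7 is the lowest point and ACTB at 101231 the highest.

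Against ATPases of other remodeling families, SMARCA4 stood between the higher and the lower genes. CHD3 and CHD4, the NuRD ATPases, had levels per kb of 1024 and 957, and the ISWI genes SMARCA1 and SMARCA5 had 1674 and 926. SMARCA4 at 837 was below these 4 and above CHD8 at 487 (just below it with the union of exons, at 452 against 455), SRCAP at 292, INO80 at 265 and EP400 at 93.6. SMARCA2 was below all 8 of them.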

How the data were processed

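RNA-seq was carried out on 3 vehicle and 3 DOX cultures of BT-549/tet-WDR5shRNA cells. By the paper's methods, the authors prepared stranded poly(A) libraries and aligned the reads with STAR to GRCh38. Counts per gene were then scaled by the authors for depth, and the groups contrasted, in DESeq2. The counting tool and any low-count filter are not given in the sources used here, and the genome's name in the methods carries a number that could be an annotation release. The authors deposited 1 signal value per gene, the mean normalized count over all 6 libraries, which was used here. The other 5 columns hold the authors' own comparison of DOX with vehicle (log2 fold change, its standard error, statistic, p-value and adjusted p-value) and were not used. A planned count test needed counts of single libraries, which are not given, so it was not possible.

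Transcript lengths, positions and overlaps came from GENCODE 44 (GRCh38). Of 19792 symbols, 17729 matched directly and 579 through a RefSeq synonym; 1484, with 1.79% of the summed mean normalized counts, did not match. Lengths were those of the MANE Select transcript, or else the canonical one. Alternatives were the union of exons, the longest protein-coding transcript and the coding length. Added after the values were seen was the number of 50-base words held by no other gene, by which the full count was divided. Shared words were sought on the transcript strand. Identical promoter windows were counted once. The members and lists were chosen with earlier results of these data known. All members are named, and other genes only from the lists of subunits, ATPases and markers. Python 3.11.15, numpy 2.4.6, pandas 2.3.3 and matplotlib 3.10.9 were used.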

Additional observations from a re-analysis of the deposited data

How the results depend on the processing

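No paired analysis was possible because only a mean over all libraries was used and the column carries no replicate number. For the same reason, fits with a replicate block, other count tests and leaving out a culture were not run, and depth cannot be weighed. The ratio of SMARCA4 to SMARCA2 per kb was 78.5 with the MANE Select transcript, 127 with the union of exons, 93.1 with the longest transcript, 73.6 with the coding length and 79.2 with the 50-base words of no other gene. The ratio of ARID1A to ARID1B, 2.22 at first, was 5.0, 2.33, 1.93 and 2.23 in the same order, and the union of exons of ARID1B is 26646 bases. The ratio of BRD9 to BRD7, 1.19 at first, was 1.47, 1.20 and 1.04 with the union, the longest transcript and the words, and reversed to 0.636 with the coding length. With the union of exons the ratio of ARID1B to ARID2 reversed from 2.26 to 0.910, and that of SMARCA4 to CHD8 from 1.72 to 0.994, both ratios being added after the values were seen. Of the 10 genes, 8 were above the median level per kb with the MANE Select or the longest transcript and 7 with the union or the coding length. Set among all 18308 genes with a length in place of the 13017, SMARCA4 stood at the 87.4 percentile and SMARCA2 at the 33.0 percentile. The percentiles also moved with the length, the lower limit of 10 on the count being kept. SMARCA4, at 82.3 with the MANE Select transcript, was at 73.8 with the union, 82.9 with the longest transcript and 63.9 with the coding length. SMARCA2, at 8.10 at first, was at 2.34, 6.83 and 4.05 in the same order.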
